A study of Homo sapiens with 6 samples.

Results

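The genes described here encode the machinery of oxidative phosphorylation. They were taken by symbol: names beginning MT-ND, MT-CO, MT-ATP or MT-CYB, the NDUF, SDH and UQCR families, CYC1, COX4 to COX8 and ATP5. Of the 27745 genes in the count table, 106 met this rule, 13 of them encoded in mitochondrial DNA and 93 in the nucleus. All 13 mitochondrially encoded genes and 84 of the 93 nuclear ones passed the filter on low counts, and these 97 were tested. The nuclear set held 78 genes for subunits, 7 tissue-restricted isoforms, 3 copies of subunit genes, 2 divergent lncRNA genes, 2 readthrough genes and the inhibitor ATP5IF1. The 78 subunit genes all passed the filter, as did 4 of the 7 isoforms, 1 of the 3 copies and ATP5IF1.

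Oxidative phosphorylation is carried out by 5 complexes in the inner mitochondrial membrane. Complex I (NADH dehydrogenase) and complex II (succinate dehydrogenase) pass electrons to coenzyme Q, complex III passes them to cytochrome c, and complex IV (cytochrome c oxidase) hands them to oxygen. Complex V, the ATP synthase, uses the proton gradient that results. Subunits of every complex except complex II come from both genomes. The mitochondrial subunits are transcribed as long polycistronic RNAs from both DNA strands by a dedicated polymerase. They are then cut out and, for most, polyadenylated. The nuclear subunits are transcribed singly, translated in the cytosol and imported. Breast cancer cell lines differ in how far they rely on this pathway and on glycolysis.

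The lncRNA MIR100HG was knocked down in MDA-MB-231, an established triple-negative breast cancer line, with pLKO.1 lentivirus holding either of 2 hairpins, sh-MIR100HG-1 and sh-MIR100HG-2, and cells given the sh-TRC vector were the control. Total RNA was taken with TRIzol 72 h after infection. Each of the 3 groups held 2 libraries, named CTR1 and CTR2, KD1-1 and KD1-2, and KD2-1 and KD2-2. The study describes the knockdown pairs as biological replicates, and what separates the control libraries is not given in the sources used here. Whether the libraries were made from polyadenylated or from rRNA-depleted RNA is not given in the sources used here, nor are infection or sequencing dates. The hairpins target these stretches of MIR100HG, shown because the comparison of the shRNAs below rests on them, with no capitals used.
sh-MIR100HG-1: ttcctctgtttgtacttaaat
sh-MIR100HG-2: gagagtgacctacagaataaa
Each target occurred at 1 place on chromosome 11 of GRCh37, at chr11:121962132-121962152 and at chr11:121961961-121961981, both on the minus strand. Neither occurred in the mitochondrial genome, where the longest exact match on either strand was 9 bases for the first and 8 bases for the second. The 7 bases of the target that pair with the guide's seed (its bases 2 to 8) occurred at 2 places in the mitochondrially encoded genes for sh-MIR100HG-1 and at 0 for sh-MIR100HG-2.

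Total counts ranged from 43804736 to 64588388 per library. MIR100HG stood at 41.9 and 58.5 CPM (counts scaled to 1000000 per library after TMM normalisation) in the control libraries, at 15.2 and 13.2 in KD1-1 and KD1-2 and at 16.6 and 10.4 in KD2-1 and KD2-2. Its log2 fold change for both shRNAs against control was -1.86 ± 0.25 (SE), with an adjusted p of 0.381 by edgeR's quasi-likelihood test. Markers of this mesenchymal-like line were abundant in every library, with VIM (vimentin) between 1142 and 1541 TPM (transcripts scaled to gene length and library) and CAV1 (caveolin 1) between 488 and 662. PGR (the progesterone receptor) had 1 count in 1 library, and ALB, a hepatocyte gene, had 0 to 14 counts. ESR1 (the oestrogen receptor), which this line is known to lack, had 140 counts in CTR2 and 185 in KD1-1, against 6 to 25 in the other libraries. FOXA1, a luminal transcription factor, had 72 and 81 counts in the same 2 libraries and 1 to 8 elsewhere. The other luminal markers looked at, GATA3 and ERBB2, were present in every library, at 11.2 to 15.2 TPM and 25.3 to 42.7 TPM.

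The 13 mitochondrially encoded genes are listed from 3307 to 15887 on the 16569 bases of the mitochondrial genome of GRCh37, and all 13 positions were the same in the annotation used here. MT-ND6 lies on the minus strand and the other 12 on the plus strand. The plus-strand genes hold 29.5 to 36.0% C and 6.28 to 16.2% G in their sense strand, and MT-CO1 holds the most G of these. MT-ND6 is the reverse, with 7.05% C and 35.6% G. The lengths of 6 of the 13 genes are not a multiple of 3, and their last codon is left as T or TA, which the poly(A) tail completes to a stop codon. The last 24 bases of these genes are shown because they set these transcripts apart from nuclear ones, with the unfinished stop codon in capitals.
MT-ND1: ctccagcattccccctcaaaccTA
MT-ND2: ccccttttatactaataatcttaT
MT-CO3: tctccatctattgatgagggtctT
MT-ND3: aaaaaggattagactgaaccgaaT
MT-ND4: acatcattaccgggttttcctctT
MT-CYB: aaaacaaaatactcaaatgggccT
MT-ATP8 and MT-ATP6 share 46 bases (chrM:8527-8572), and MT-ND4L and MT-ND4 share 7 bases (chrM:10760-10766). A read lying in such a stretch could not be told apart between the genes of a pair. The shared bases are in capitals, with 20 bases on each side.
MT-ATP8/MT-ATP6: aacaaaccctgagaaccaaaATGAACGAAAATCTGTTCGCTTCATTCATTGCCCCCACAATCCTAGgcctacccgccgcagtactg
MT-ND4L/MT-ND4: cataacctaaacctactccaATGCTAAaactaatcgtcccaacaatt

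Per length, the mitochondrially encoded genes were far more abundant than the nuclear ones. In the control libraries their levels ran from 3009 TPM for MT-ATP8 to 19985 TPM for MT-CO2, with a median of 7618 TPM, against a median of 103 TPM over the 78 nuclear subunit genes. MT-CO2 (19985 ± 4634 TPM, SD, n = 2) and MT-CO1 (17147 ± 4237 TPM), which form the catalytic core of complex IV, came first, followed by MT-ATP6 (14443 ± 3823 TPM), MT-CO3 (13912 ± 3054 TPM) and MT-ND3 (11486 ± 469 TPM). Neighbours among these 5 differed by less than the larger of their spreads over the 2 control libraries. The ratio of the mitochondrial to the nuclear median was 73.8 in control, 102 in the KD1 libraries and 47.4 in the KD2 libraries.

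The first question was whether the 2 genomes' transcripts kept the same balance when MIR100HG was knocked down. Mitochondrially encoded genes took 3.46 and 2.41% of the counts in CTR1 and CTR2, 3.30 and 3.38% with sh-MIR100HG-1, and 1.52 and 1.84% with sh-MIR100HG-2. The KD2 libraries were the lowest of the 6 and did not overlap the other groups, and CTR2 lay between them and the remaining 3 libraries. The 93 nuclear genes together took 0.697, 0.737, 0.679, 0.691, 0.695 and 0.765% of the counts in the same order. The KD1 libraries were the lowest by a small margin and the control and KD2 libraries overlapped. There were thus 4.96 and 3.27 mitochondrial counts per nuclear count in the control libraries, 4.86 and 4.89 with sh-MIR100HG-1, and 2.19 and 2.40 with sh-MIR100HG-2. The mean share with sh-MIR100HG-2 was 1.68% ± 0.22 (SD, n = 2), which was 0.503 times that with sh-MIR100HG-1 (3.34% ± 0.06) and 0.573 times that of control (2.93% ± 0.74). The 2 control libraries themselves differed 1.44-fold. The Wilson 95% intervals of the single shares were at most ±0.00535 percentage points, so counting error was far below the differences between libraries. With 2 libraries against 2, an exact permutation test cannot go below p = 0.333.

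**Figure D1:**
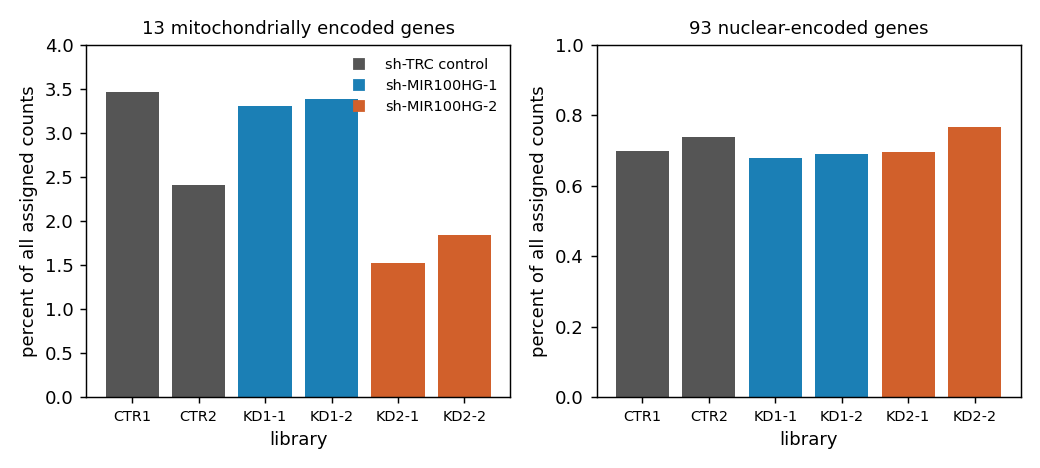
Percent of all assigned counts (vertical axis) taken by the 13 mitochondrially encoded genes (left) and the 93 nuclear-encoded genes (right) in each of the 6 libraries, 1 bar per library, coloured by group. The KD2 libraries stand at 1.52 and 1.84% on the left, below every other library, while the nuclear share stays between 0.679 and 0.765%.

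Between the shRNAs, the mitochondrially encoded genes lay lower with sh-MIR100HG-2 than with sh-MIR100HG-1 in all 13 cases, with a median log2 fold change of -1.01. The median was 0.15 over the 84 nuclear genes tested and -0.01 over all 15372 genes tested. In all 13 both KD2 libraries were below both KD1 libraries, a pattern shown by 23.3% of all genes tested in that direction and by 20.6% in the other. By edgeR's quasi-likelihood test 12 of the 13 were lower at an unadjusted p under 0.05. Of all genes, 6.12% were lower and 3.34% higher at that p. Genes of the same strand are cut from shared long RNAs, and all 13 enter the mitochondrial share of their library. Counts over the 13, here and below, are thus not counts of independent genes. After adjustment over all genes 0% of the 15372 genes were called in this comparison, mitochondrial ones included, so none of the 13 passed the test. Their adjusted p values lay between 0.509 and 0.594. The likelihood ratio test of edgeR and DESeq2 each called 4 of the 13 in this comparison, against 0.592% and 0.711% of all genes, and edgeR's quasi-likelihood test without the filter on low counts called 12, against 3.18%.

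MT-CO1, the catalytic subunit of complex IV that receives the electrons and binds oxygen, stood at 7696 and 5753 CPM in the control libraries, at 6114 and 6563 in the KD1 libraries and at 2921 and 3342 in the KD2 libraries. Both KD2 values were below all others. Its log2 fold change between the shRNAs (sh-MIR100HG-2 over sh-MIR100HG-1) was -1.02 ± 0.22 (SE), with an adjusted p of 0.509. MT-CO2, which carries the copper centre that takes electrons from cytochrome c, had 3942 and 3013 CPM in control, 3805 and 4000 in KD1 and 1981 and 2582 in KD2, with a log2 fold change between the shRNAs of -0.77 ± 0.23. MT-CO3, the third core subunit, had 3122 and 2429 CPM in control, 3194 and 3334 in KD1 and 1705 and 1959 in KD2, with a log2 fold change of -0.83 ± 0.21. The groups of all 3 complex IV genes separated KD2 from control and from KD1.

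MT-ND1, a membrane subunit of complex I near the site where coenzyme Q binds, had the largest difference between the shRNAs of the 13. It stood at 2033 and 1147 CPM in control, at 2243 and 2650 in KD1 and at 823 and 1092 in KD2, and its log2 fold change between the shRNAs was -1.35 ± 0.30. CTR2 lay close to the KD2 libraries for this gene. MT-ND2 had 2033 and 1368 CPM in control, 2377 and 2734 in KD1 and 1035 and 1458 in KD2, so that KD2-2 overlapped the control range. MT-ND4 and MT-ND5, like MT-ND2 related to antiporter subunits and counted among the proton-pumping part of the complex, had log2 fold changes between the shRNAs of -0.86 ± 0.23 and -1.01 ± 0.23. MT-ND4L, whose gene overlaps that of MT-ND4, had -0.92 ± 0.25.

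MT-ND3 was the exception among the 13. It had 1013 and 1018 CPM in control, 1108 and 1286 in KD1 and 817.5 and 1063 in KD2, with a log2 fold change between the shRNAs of -0.35 ± 0.21 and an unadjusted p of 0.140 by edgeR's quasi-likelihood test. KD2-2 lay above both control libraries for this gene. The strand setting of the counting is not given in the sources used here, so plus-strand reads may be in the MT-ND6 count. MT-ND6, the gene on the other strand, lay with the plus-strand genes. It had 861 and 581 CPM in control, 823 and 908 in KD1 and 366 and 466 in KD2, with a log2 fold change between the shRNAs of -1.06 ± 0.25. MT-CYB, the complex III subunit that holds both coenzyme Q sites, had 1924 and 1263 CPM in control, 2025 and 2221 in KD1 and 934 and 1057 in KD2, and its log2 fold change between the shRNAs was -1.09 ± 0.24. The complex V pair, MT-ATP6 and MT-ATP8, had log2 fold changes of -1.01 ± 0.23 and -1.06 ± 0.23.

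**Figure D2:**
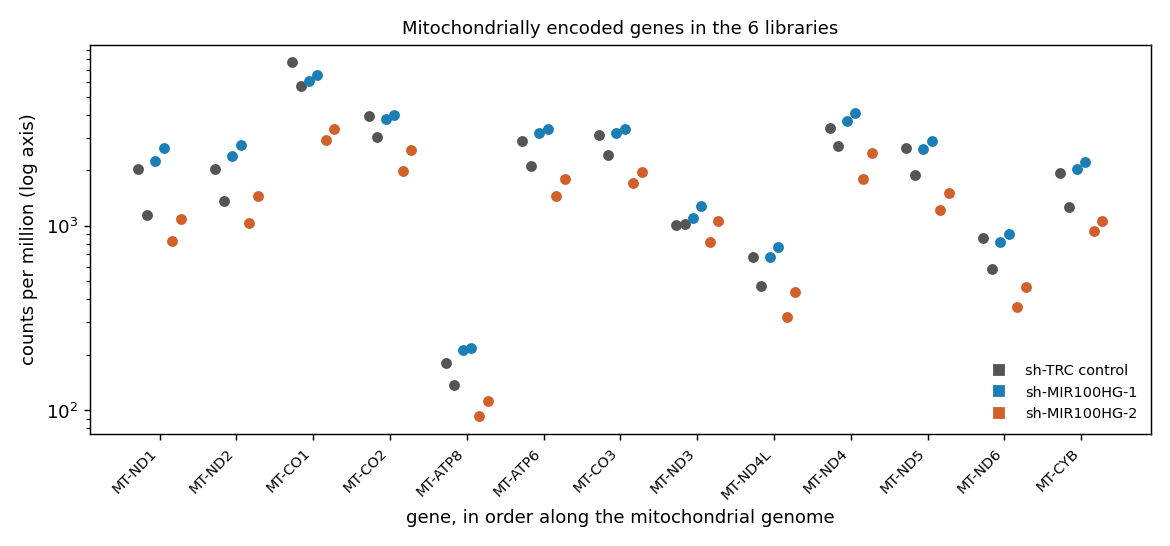
CPM (TMM-normalised, log axis) of the 13 mitochondrially encoded genes in the 6 libraries, 1 point per library, coloured by group and placed in order along the mitochondrial genome. The KD2 points lie below the KD1 points for each gene, with the smallest gap for MT-ND3 (817.5 and 1063 against 1108 and 1286).

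Against control, all 13 point estimates with sh-MIR100HG-2 were below 0, with a median log2 fold change of -0.62 over the mitochondrial genes, 0.11 over the nuclear genes and -0.04 over all genes tested. In 11 of the 13 both KD2 libraries were below both control libraries, against 20.4% of all genes lower and 18.1% higher in that way. The others were MT-ND2 and MT-ND3. At an unadjusted p under 0.05, 10 of the 13 were lower, against 5.15% of all genes lower and 3.71% higher. After adjustment 0% of all genes were called in this comparison. The lowest adjusted p of the 13 was 0.406 for MT-CO1, with a log2 fold change of -1.10 ± 0.22. MT-CO1 was the 1 gene of the 13 called here by DESeq2 (adjusted p of 0.00983), by the likelihood ratio test (0.0148) and without the filter on low counts (1.81e-05), settings that called 1.14%, 0.787% and 2.42% of all genes. The count of 10 fell to 1 without CTR1 and to 1 without KD2-1, while without CTR2 it was 12.

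With sh-MIR100HG-1 the point estimates were on the other side. The median log2 fold change against control was 0.33 over the mitochondrial genes, -0.02 over the nuclear ones and -0.00 over all genes tested. Of the 13, 12 had a positive log2 fold change, from 0.17 for MT-CO2 to 0.62 for MT-ND1, and MT-CO1 had -0.09. In 9 of the 13 both KD1 libraries were above both control libraries. Of all 15372 genes tested, 3115 were higher and 3106 lower in that way. None of the 13 was at an unadjusted p under 0.05, against 3.10% of all genes higher and 3.77% lower, and 0% of all genes were called after adjustment. Without CTR1, 5 of the 13 were higher at an unadjusted p under 0.05.

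Taking both shRNAs together against control, the 2 directions met and the median of the 13 was -0.13, beside 0.03 for the nuclear genes and -0.04 for all genes. In 0 of the 13 were the 4 knockdown libraries all on one side of the control libraries, against 8.40% of all genes higher and 9.08% lower. At an unadjusted p under 0.05, 1 of the 13 was lower, MT-CO1 with a log2 fold change of -0.59 ± 0.18, against 4.44% of all genes lower and 3.23% higher. Its adjusted p was 0.531, and 0% of all genes were called after adjustment. Without the filter on low counts it was called (adjusted p of 0.0350), as were 1.84% of all genes. Without CTR1 its log2 fold change was -0.37 and the count was 0. The difference between the mitochondrial and the nuclear median was -0.17 in this comparison and 0.35 for sh-MIR100HG-1 against control. It was -0.73 for sh-MIR100HG-2 against control and -1.16 between the shRNAs. The pooled spread within groups was 0.26 (SD, log2). Taken per library relative to the control mean, the difference was 0.31 in CTR1 and -0.31 in CTR2. It was 0.29 and 0.37 in the KD1 libraries and -0.80 and -0.68 in the KD2 libraries. Most of the pooled spread thus came from the control libraries. The comparisons with control share the control libraries, whose own 1.44-fold gap enters each of them. The comparison between the shRNAs does not use them for its estimate.

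**Figure D3:**
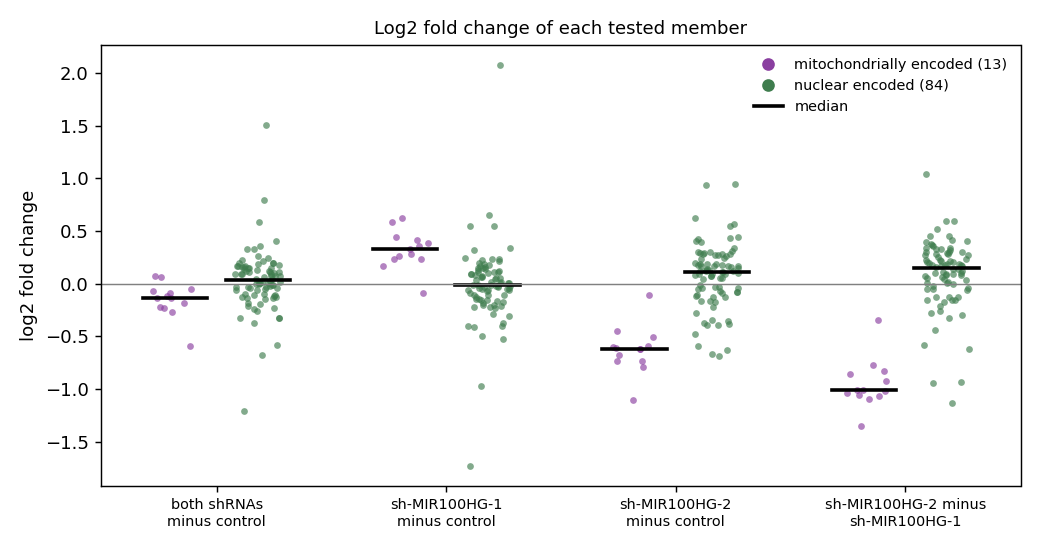
Log2 fold change (vertical axis) of each tested oxidative phosphorylation gene in the 4 comparisons, 1 point per gene, with mitochondrially encoded genes in purple, nuclear genes in green and a bar at each median. The mitochondrial medians are -0.13, 0.33, -0.62 and -1.01 from left to right, while the nuclear medians stay between -0.02 and 0.15.

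Other RNAs were low in the same libraries as the mitochondrial transcripts. MALAT1, a lncRNA held in nuclear speckles, had 1617 CPM in CTR1 and 304 in CTR2, 994 and 1555 in the KD1 libraries, and 191 and 350 in the KD2 libraries. NEAT1, the lncRNA of paraspeckles, had 652 and 141 CPM in control, 843 and 647 in KD1 and 127 and 130 in KD2. CTR2 thus lay with the KD2 libraries for both, as it also lay nearest to them for the mitochondrial share. The log2 fold changes between the shRNAs were -2.24 ± 0.68 for MALAT1 and -2.54 ± 0.59 for NEAT1, both with an adjusted p of 0.509 by edgeR's quasi-likelihood test. Of 2 epithelial markers, EPCAM was low in the same libraries, with 9.77 and 5.62 CPM in control, 11.7 and 12.99 in KD1 and 4.36 and 5.97 in KD2. CDH1 (E-cadherin) was not, with 148 and 415 counts in control, 332 and 86 in KD1 and 68 and 120 in KD2, and CTR2 was its highest library, at 7.05 CPM. Mitochondrial rRNAs are not analysed here. The part of RNA composition in the lower mitochondrial level was not tested, and in bulk RNA fewer mitochondrial transcripts per cell cannot be told apart from a different make-up of the extracted RNA.

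**Figure D4:**
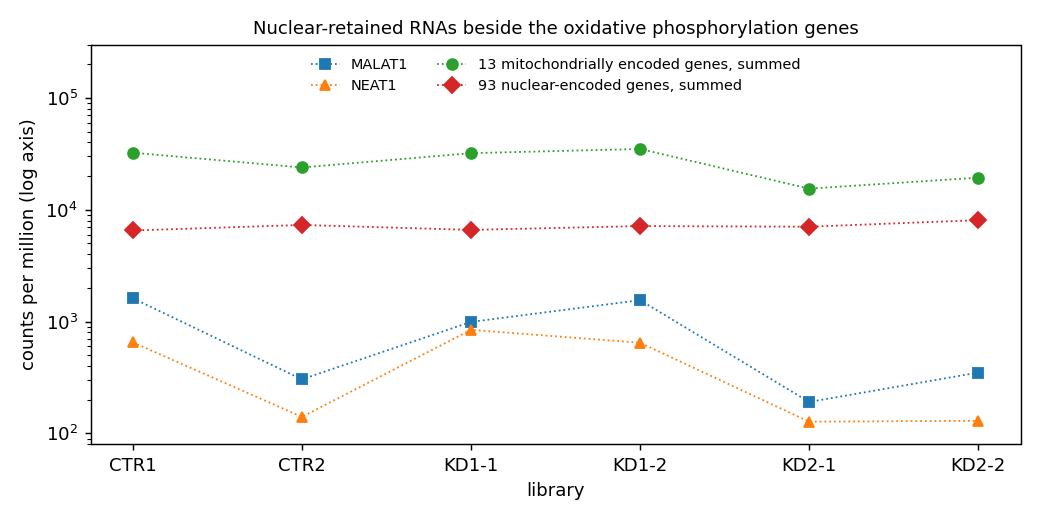
CPM (log axis) of MALAT1, NEAT1 and the summed mitochondrially encoded and nuclear-encoded genes in the 6 libraries, 1 symbol per library, joined by dotted lines only to guide the eye. MALAT1, NEAT1 and the mitochondrial sum are all lower in CTR2, KD2-1 and KD2-2 than in the other 3 libraries, and the nuclear sum is not.

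Within the mitochondrial counts the make-up also differed, and for some genes, though not all, the shRNAs lay on the same side of control. For MT-ND3 the group means were 3.69% in control, 3.56% in KD1 and 5.39% in KD2, on opposite sides of control. Those of MT-ND1, MT-CO2, MT-CO3, MT-ND5 and MT-ND6 also lay on opposite sides. MT-CO1 made up 23.8 and 24.1% of the mitochondrial counts in the control libraries, 19.1 and 18.8% in the KD1 libraries and 18.9 and 17.2% in the KD2 libraries. All 4 knockdown libraries lay below both control libraries. The exact permutation test of 4 libraries against 2, which pools the shRNAs, gave p = 0.0667, the smallest it allows (two-sided). MT-ND2, MT-ATP6 and MT-ND4 had the same p by this test, so it did not set MT-CO1 apart. MT-ND2 went the other way, with 6.28 and 5.72% in control, 7.41 and 7.81% in KD1 and 6.70 and 7.52% in KD2. MT-ATP8, MT-ATP6, MT-ND4L and MT-ND4 were also above control in all 4 knockdown libraries. In all, 6 of the 13 genes, or 46.2%, had knockdown and control libraries that did not overlap on this scale, 5 higher and 1 lower. The scale is defined for the 13 genes only, so no share over all genes stands beside this count. Shares within a library sum to a fixed total, so a smaller share of MT-CO1 raises the others. With MT-CO1 left out of the total, MT-ND2 alone was still higher in all 4 knockdown libraries, and MT-ND5 and MT-ND6 were lower. The other 9 genes overlapped between knockdown and control. MT-ND3 made up 5.29 and 5.49% in the KD2 libraries against 3.13 to 4.26% in the other 4, and MT-ND1 made up 6.99 and 7.57% in the KD1 libraries against 4.80 to 6.28% elsewhere.

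**Figure D5:**
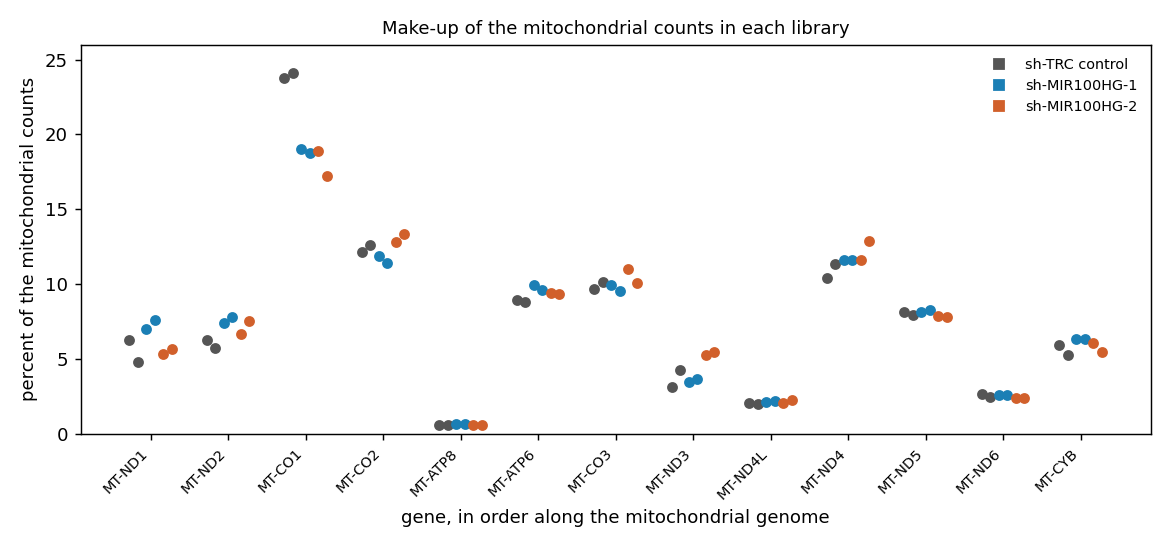
Percent of the mitochondrial counts (vertical axis) taken by each of the 13 genes in the 6 libraries, 1 point per library, coloured by group. MT-CO1 stands at 23.8 and 24.1% in control and between 17.2 and 19.1% in the 4 knockdown libraries.

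The median of the nuclear genes of each complex lay above that of all genes. The latter was -0.04 for both shRNAs against control and -0.01 between the shRNAs. Complex I had 38 genes tested, with a median log2 fold change for both shRNAs against control of 0.03 and between the shRNAs of 0.15. For complex II (4 genes) these medians were 0.15 and 0.13, for complex III (10 genes) 0.13 and 0.23, for complex IV (14 genes) 0.01 and 0.14, and for complex V (18 genes) 0.04 and 0.08. Over the 84 nuclear genes, 0 were called in any of the 4 comparisons by edgeR's quasi-likelihood test after adjustment. At an unadjusted p under 0.05 there was 1 for both shRNAs against control, 1 for sh-MIR100HG-1 and 3 each for sh-MIR100HG-2 against control and between the shRNAs. The largest of these shares, 3 of 84, was 3.57%, against 8.86 and 9.45% of all genes in the 2 comparisons concerned, both directions counted. Between the shRNAs 60 of the 84 (71.4%) had a positive log2 fold change, against 49.0% of all genes. In 26 both KD2 libraries were above both KD1 libraries and in 9 below, against 20.6% and 23.3% of all genes. For both shRNAs, all knockdown libraries lay above control in 7 genes and below in 4, against 8.40% and 9.08% of all genes.

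Summed over a complex, the mitochondrial part differed between the shRNAs by more than its spread in complexes I, III, IV and V. Complex I had 14425 ± 1241 CPM (SD, n = 2) from its 7 mitochondrial genes in KD1 and 7449 ± 1524 in KD2, while its nuclear genes summed to 2077 ± 79 and 2298 ± 165 CPM. For complex III the sole mitochondrial gene, MT-CYB, had 2123 ± 138 and 996 ± 87 CPM and the nuclear sums were 867 ± 0.59 and 979 ± 113 CPM. For complex IV the mitochondrial sums were 13506 ± 554 and 7245 ± 901 CPM and the nuclear sums 1099 ± 106 and 1191 ± 117 CPM. For complex V they were 3489 ± 117 and 1731 ± 264 CPM from MT-ATP6 and MT-ATP8 and 2459 ± 163 and 2673 ± 266 CPM from the nucleus. Complex II, which has no mitochondrially encoded subunit, stood at 378 ± 35 and 427 ± 58 CPM.

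Some nuclear subunits are named here by level and by the size of p, as set by rule. In complex I, NDUFS5, an accessory subunit, had the highest level of the nuclear genes, between 819 and 939 TPM, with a log2 fold change between the shRNAs of 0.13. NDUFS7, an iron-sulphur subunit of the electron path, had 49.3 and 71.9 CPM in control, 51.5 and 46.3 in KD1 and 64.3 and 83.4 in KD2, with a log2 fold change between the shRNAs of 0.59 ± 0.26 and an adjusted p of 0.526. CTR2 lay between the KD2 libraries. NDUFS8, another iron-sulphur subunit, had 80.9 and 123 CPM in control, 81.4 and 72.7 in KD1 and 103 and 118 in KD2, a log2 fold change of 0.52. NDUFA5, an accessory subunit, went the other way, with 53.1 and 25.3 CPM in control, 50.3 and 64.3 in KD1 and 28.2 and 31.3 in KD2, a log2 fold change between the shRNAs of -0.94 ± 0.34. Its low libraries were CTR2, KD2-1 and KD2-2, the same as for MALAT1. NDUFS4, an accessory subunit, had a log2 fold change of -0.44.

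In complex II, SDHA, the flavoprotein that oxidises succinate, was between 82.8 and 116 TPM. SDHC, a membrane anchor, had 98.9 and 103 CPM in control, 66.7 and 86.6 in KD1 and 71.6 and 87.8 in KD2. All 4 knockdown libraries lay below control, a pattern shown by 9.08% of all genes tested. The log2 fold change of SDHC for both shRNAs was -0.37, with an adjusted p of 0.692 by edgeR's quasi-likelihood test. Part of its exons overlap those of CFAP126 on the same strand. In complex III, CYC1 (cytochrome c1) was the most abundant nuclear gene, between 380 and 626 TPM, with a log2 fold change for both shRNAs of 0.21. UQCR10, a small subunit, had 30.4 and 41.5 CPM in control, 40.1 and 44.8 in KD1 and 49.7 and 56.99 in KD2, with a log2 fold change of sh-MIR100HG-2 against control of 0.57 and an adjusted p of 0.555.

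In complex IV, COX7A2L, which links complexes III and IV into supercomplexes, had 65.2 and 81.1 CPM in control, 74.7 and 89.7 in KD1 and 94.2 and 119 in KD2, with a log2 fold change of sh-MIR100HG-2 against control of 0.54 and an adjusted p of 0.558. COX6C, a small membrane subunit, had 94.2 and 80.2 CPM in control, 95.2 and 104 in KD1 and 76.7 and 56.1 in KD2. It lay in the mitochondrial direction between the shRNAs, with a log2 fold change of -0.59 ± 0.23 and an adjusted p of 0.509. In complex V, ATP5F1B, the catalytic beta subunit, was the most abundant of all nuclear members, between 1060 and 1351 TPM, with a log2 fold change between the shRNAs of 0.17. ATP5MC3, which encodes the membrane ring subunit, had a log2 fold change between the shRNAs of 0.45. ATP5PO, the stalk subunit that confers oligomycin sensitivity, had 10.98 and 10.2 CPM in control, 8.04 and 6.99 in KD1 and 7.61 and 5.73 in KD2, with a log2 fold change for both shRNAs of -0.58 and an adjusted p of 0.642. All 4 knockdown libraries lay below control for this gene, as they did for 9.08% of all genes tested.

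ATP5PO shares exonic bases on the same strand with another annotated gene, so its count is uncertain. This held for 16 of the 78 nuclear subunit genes, whose median level in control was 39.1 TPM, against 112 TPM for the others. With overlaps on either strand counted, 34 of the 78 shared exonic bases with another gene. The strand setting of the counting is not given in the sources used here, so these counts may be uncertain too. The 78 ran from 0.270 TPM for NDUFA7, a complex I subunit that overlaps a readthrough gene, to 1103 TPM for ATP5F1B.

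Several complex IV subunits, and single ones of complexes I and III, exist as a common and a tissue-restricted or copied form, 8 pairs in all. The common form was the abundant one in all 8 and in every library. COX4I1, the regulatory subunit found in most tissues, was between 104 and 125.4 TPM, while COX4I2, the lung and hypoxia form, had 2 counts in KD2-1 and 0 in the other 5 libraries. COX6A1 was between 83.6 and 100.2 TPM and COX6A2, the heart and muscle form, had 0 counts in all 6. COX8A was between 659 and 850 TPM and COX8C had 0 to 2 counts. COX7A2 was between 231 and 325 TPM against 1.14 to 2.83 TPM for the muscle form COX7A1, and COX6B1 was between 314 and 530 TPM against 0.293 to 0.808 for the testis form COX6B2. COX7B was between 62.8 and 84.7 TPM, and COX7B2 had 2 to 30 counts. UQCRH, the hinge protein of complex III, was between 260 and 299 TPM, and UQCRHL, a near-identical copy whose reads may be shared with it, between 2.54 and 4.199 TPM.

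NDUFA4, counted here with complex I by its symbol although it is now known as a complex IV subunit, was between 113 and 132 TPM. NDUFA4L2, its hypoxia-inducible relative, had 2 and 9 counts in control, 21 and 22 in KD1 and 6 and 12 in KD2. The log2 fold change with sh-MIR100HG-1 was 2.08, on these few counts, with an adjusted p of 0.714 by edgeR's quasi-likelihood test. It was the nuclear gene behind the count of 1 in that comparison.

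The machinery that makes and handles mitochondrial RNA was compared as a list of 29 genes. For both shRNAs against control its median log2 fold change was 0.08 and 0 genes had an unadjusted p under 0.05, and between the shRNAs the median was -0.04, again with 0. Against control, sh-MIR100HG-2 had 1 gene higher and 1 lower at that p by edgeR's quasi-likelihood test, against 3.71% and 5.15% of all genes, and none passed after adjustment. HSD17B10, a subunit of mitochondrial RNase P, had 65.7 and 85.8 CPM in control, 84.4 and 110 in KD1 and 102 and 155 in KD2, a log2 fold change of 0.76 for sh-MIR100HG-2. TFB2M, the transcription factor that opens mitochondrial promoters, had 17.1 and 17.1 CPM in control, 14.2 and 13.5 in KD1 and 12.9 and 9.87 in KD2, a log2 fold change of -0.59. POLRMT, the mitochondrial RNA polymerase, had 70.9 and 83.99 CPM in control, 66.8 and 58.0 in KD1 and 79.4 and 87.9 in KD2. TFAM, which packages mitochondrial DNA and starts its transcription, had 74.9 and 65.8 CPM in control, 67.5 and 78.4 in KD1 and 60.7 and 51.9 in KD2. LRPPRC, which stabilises mitochondrial mRNAs, had 141 and 132 CPM, 155 and 186, and 155 and 132 in the same order. TFB2M, POLRMT, TFAM and LRPPRC were picked after their values were seen.

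Of 17 genes that maintain mitochondrial DNA, 2 were higher with sh-MIR100HG-2 than in control at an unadjusted p under 0.05 and 0 were lower, against 3.71% of all genes higher and 5.15% lower. Between the shRNAs 1 was higher and 2 were lower, against 3.34% and 6.12% of all genes, and the median of the list was -0.12. The pair higher against control were TWNK, the replicative helicase, with 19.2 and 32.2 CPM in control, 25.4 and 29.6 in KD1 and 40.8 and 44.03 in KD2, and POLG, the DNA polymerase, with 72.4 and 94.4, 92.5 and 82.0, and 114 and 134. Both KD2 libraries were above control for both genes, as they were for 18.1% of all genes tested. The pair lower between the shRNAs were RRM2B, a ribonucleotide reductase subunit, with a log2 fold change of -0.92 and 48.7 and 32.9 CPM in control, 56.2 and 50.6 in KD1 and 34.2 and 22.5 in KD2, and OPA1, a dynamin-like GTPase of the inner membrane, with a log2 fold change of -0.67. The gene higher between the shRNAs was TK2, with a log2 fold change of 0.61. It had 23.5 and 30.3 CPM in control, 17.8 and 19.8 in KD1 and 26.9 and 30.7 in KD2. POLG, RRM2B, OPA1 and TK2 were singled out after their values were seen. Among 48 assembly factors, which help build the complexes, the median log2 fold change was 0.08 for both shRNAs and 0.08 between the shRNAs. COX16, an assembly factor of complex IV, had the smallest p of these for both shRNAs, with 2.05 and 3.21 CPM in control and 1.28 to 1.85 in the 4 knockdown libraries, a log2 fold change of -0.87 and an adjusted p of 0.653 by edgeR's quasi-likelihood test. Of 12 regulators of mitochondrial biogenesis, 0 were at an unadjusted p under 0.05 in any comparison, and SIRT1, a deacetylase of this group, had a log2 fold change of -0.35 for both shRNAs.

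Ribosomal protein genes served as abundant nuclear families for comparison. The 79 mitochondrial ribosomal protein genes, which are nuclear encoded, had a median log2 fold change between the shRNAs of 0.24, and the 82 tested genes for cytosolic ribosomal proteins 0.13, beside 0.15 for the nuclear oxidative phosphorylation genes. All 3 medians were on the opposite side to the mitochondrially encoded genes.

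The promoters of the nuclear subunit genes, which the rule did not use, were searched for 2 motifs. RefSeq promoter sequences of GRCh38.p14, running from 250 bases before to 50 bases after the start, were found for 64 of the 78. The core motif of NRF1, a regulator of respiratory genes, spelled GCATGCG, occurred on either strand in 13 of the 64 (20.3%), against 6.04% of 11723 promoters of tested genes and 4.13% of all 27305 promoters. The core of ETS factors such as GABPA, also called NRF2, spelled CCGGAAG, occurred in 20 of the 64, against 17.9% and 10.7%. Either was found in 27 of the 64 (42.2%), against 22.5% and 14.02%. A promoter in which a core reads on both strands was counted once. By complex, 10 of 31 promoters of complex I, 2 of 3 of complex II, 3 of 7 of complex III, 5 of 10 of complex IV and 7 of 13 of complex V held either one. A match describes the letters, not the binding of a factor. Promoters of 2 complex V genes that hold both motifs, the first of 6 such genes by name, and that of COX4I1, which holds only the ETS core, are shown with the motifs in capitals. They lie at chr4:674227-674526 (minus strand), chr21:25735005-25735304 (minus strand) and chr16:85799445-85799744 (plus strand).
ATP5ME: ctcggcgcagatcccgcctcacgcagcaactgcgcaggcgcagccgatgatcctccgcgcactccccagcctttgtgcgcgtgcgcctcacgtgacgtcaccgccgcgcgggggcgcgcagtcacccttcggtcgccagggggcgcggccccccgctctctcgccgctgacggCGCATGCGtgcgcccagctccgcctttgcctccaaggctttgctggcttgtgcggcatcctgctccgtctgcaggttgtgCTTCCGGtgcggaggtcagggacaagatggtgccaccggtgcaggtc
ATP5PF: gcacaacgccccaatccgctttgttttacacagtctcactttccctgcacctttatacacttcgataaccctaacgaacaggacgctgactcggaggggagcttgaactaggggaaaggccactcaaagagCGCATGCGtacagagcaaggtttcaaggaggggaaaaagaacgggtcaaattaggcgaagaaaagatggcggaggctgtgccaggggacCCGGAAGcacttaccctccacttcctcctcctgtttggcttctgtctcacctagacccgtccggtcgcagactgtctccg
COX4I1: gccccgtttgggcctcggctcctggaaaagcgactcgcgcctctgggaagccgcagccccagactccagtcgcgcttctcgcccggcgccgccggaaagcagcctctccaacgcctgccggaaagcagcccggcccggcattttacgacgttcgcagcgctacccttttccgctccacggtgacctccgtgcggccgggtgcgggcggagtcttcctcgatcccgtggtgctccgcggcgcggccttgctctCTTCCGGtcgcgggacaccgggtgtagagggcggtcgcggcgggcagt
NRF1 itself had 21.1 and 25.7 CPM in control, 23.6 and 23.5 in KD1 and 21.1 and 23.5 in KD2, and GABPA had 22.3 and 16.99, 23.97 and 23.8, and 19.6 and 11.8. The groups overlapped for both genes between knockdown and control.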

How the data were processed

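RNA-seq was made by the study in 6 libraries of 3 groups. The authors deposited raw counts of each gene, not normalized, from reads mapped with STAR to GRCh37 with the lifted GENCODE annotation and assigned to exons with featureCounts. The STAR version is 2.5.2a in the submitters' processing notes and another in the methods. The strand setting and the treatment of multi-mapping reads are not given in the sources used here. Symbols were matched for 26966 of 27745 genes. The members and gene lists were chosen with earlier results of these data known.

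Genes with fewer than 5 counts in at least 3 of the 6 libraries were removed (12373) and 15372 were tested. Counts were TMM-normalised and fitted in 1 model over all 3 groups with edgeR 4.0.16 (R 4.3.3), quasi-likelihood test, with Benjamini-Hochberg adjustment over all genes tested and a threshold of 0.05. TPM were computed from the deposited summed exon lengths. Total counts of 43804736 to 64588388 per library gave intervals that cover counting error only. P-values measure the spread between these libraries.

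Genes were named by rule: all mitochondrially encoded members, the highest and lowest tested member of each nuclear complex, the 3 nuclear members with the smallest p in each direction for both shRNAs and between the shRNAs, the isoform pairs, and the gene with the smallest p for both shRNAs in each further list. Alternatives were another normalization, no filter, the likelihood ratio test, DESeq2 1.42.0, a replicate block, mitochondrial genes left out of the library sizes, and each library left out. Sequences came from GRCh37, from RefSeq promoters of GRCh38.p14 and from the study's table of shRNA oligonucleotides.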

Additional observations from a re-analysis of the deposited data

Results flagged for a closer look

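In 8 oxidative phosphorylation genes both KD1 libraries lay above both control libraries and both KD2 libraries lay below them. With sh-MIR100HG-1 against control, 0 of the 8 reached an unadjusted p of 0.05 by edgeR's quasi-likelihood test. Between the shRNAs (sh-MIR100HG-2 over sh-MIR100HG-1) the log2 fold change was -1.35 for MT-ND1, -1.06 for MT-ATP8, -1.01 for MT-ATP6, -0.83 for MT-CO3, -0.92 for MT-ND4L, -0.86 for MT-ND4 and -1.09 for MT-CYB, all 7 encoded in mitochondrial DNA, and -0.59 for COX6C, encoded in the nucleus. In the fit over all genes the adjusted p of all 8 was 0.509, and since they were picked for the order of their libraries these values are a description. Among all genes tested, 299 of 15372 (1.95%) had libraries that lay in this way, 183 of them in this direction and 116 in the other. The log2 fold change of MIR100HG itself between the shRNAs was -0.07 ± 0.30. MALAT1 and NEAT1 were low in CTR2 and the KD2 libraries, and their part in the result was not tested.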

How the results depend on the processing

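With 2 libraries per group and 3 residual degrees of freedom, the number of genes called depended on the test and on the filter on low counts. Against 0 called by the quasi-likelihood test in each comparison, the likelihood ratio test called 109 genes for both shRNAs, 34 for sh-MIR100HG-1, 121 for sh-MIR100HG-2 and 91 between the shRNAs. DESeq2 called 129, 65, 165 and 103 in the same order, and leaving out the filter on low counts 392, 227, 517 and 679. The cause was not tested. Of the 13 mitochondrial genes, those called between the shRNAs were 4, 4 and 12 in these 3 settings. The log2 fold change of MIR100HG was -1.86 by the likelihood ratio test, -1.84 by DESeq2 and -1.86 without the filter, past the threshold in each, and it lay between -2.08 and -1.60 with each library left out. The mitochondrial minus nuclear median kept its direction in each setting for the comparisons of sh-MIR100HG-1 or sh-MIR100HG-2 with control and of the shRNAs with each other. A change of library scaling shifts both medians alike and so could not move it. The likelihood ratio test, DESeq2 and the fit without the filter used the same libraries and groups. These settings could hardly move it either, and between the shRNAs it was -1.16 in each. With each library left out it lay between -0.50 and 0.11 for both shRNAs, where the highest value was without CTR1, between 0.0905 and 0.65 for sh-MIR100HG-1, between -1.04 and -0.41 for sh-MIR100HG-2 and between -1.20 and -1.06 between the shRNAs. The genes called with each library left out were 0 in every case for both shRNAs, 0 to 3 for sh-MIR100HG-1 (3 without CTR1), 0 to 4 for sh-MIR100HG-2 (4 without CTR2) and 0 to 7 between the shRNAs (6 without CTR1, 7 without CTR2). A fit that left a group with 1 library assumed that it varied like the others.

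The same numbers did not pair the control libraries with those of either shRNA. Deviations from the group means correlated at -0.21 between control and sh-MIR100HG-1 and at 0.02 between control and sh-MIR100HG-2. Between the shRNAs they correlated at 0.50, and the main fit held no term for replicate number. With the replicate block 0 genes were called in each comparison, and the mitochondrial minus nuclear median was -0.15, 0.34, -0.73 and -1.15. With the control numbers crossed, chosen after seeing the data, 0 were called in each as well.

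Single genes near 0 changed sign. For both shRNAs NDUFS7 (-0.01) was 0.00845 with the other normalization, 0.00845 by DESeq2, 0.00778 with the block and 6.4e-04 with it crossed, and COX7A2 (0.01) was -0.00135 and -0.00770 under the blocks. The log2 fold changes of 33 of 115 results changed sign when some library was left out. The ranges for both shRNAs against control were MT-ND1 -0.41 to 0.42, MT-ATP8 -0.27 to 0.12, MT-ATP6 -0.33 to 0.13, MT-CO3 -0.35 to 0.0095, MT-ND4L -0.36 to 0.14, MT-ND4 -0.22 to 0.094, MT-ND5 -0.45 to 0.028, MT-ND6 -0.52 to 0.046, MT-CYB -0.40 to 0.20, SDHA -0.049 to 0.31, COX8A -0.069 to 0.29, ATP5MC3 -2.18e-04 to 0.24, COX6C -0.22 to 0.021, NDUFS4 -0.20 to 0.093, COX4I1 -0.014 to 0.16, COX7A2 -0.083 to 0.094, COX7A1 -0.45 to 0.28, COX7B -0.043 to 0.079, MT-ND2 -0.19 to 0.38, NDUFS7 -0.26 to 0.29, NDUFS8 -0.41 to 0.19, NDUFA5 -0.36 to 0.71 and MT-ND3 -0.045 to 0.15. The ranges for sh-MIR100HG-1 against control were MT-CO1 -0.28 to 0.14 and MT-CO2 -0.015 to 0.37. The ranges for sh-MIR100HG-2 against control were MT-ND3 -0.32 to 0.067. The ranges between the shRNAs were SDHC -0.12 to 0.27, UQCRHL -0.20 to 0.41, NDUFA4 -0.11 to 0.15, UQCRH -0.11 to 0.0098, COX7B2 -1.25 to 1.91, COX8A -0.12 to 0.30 and ATP5PO -0.39 to 0.017.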

Other observations

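Genes around the respiratory chain were compared as further lists. Of 22 genes for electron carriers and coenzyme Q, 2 were lower for both shRNAs against control at an unadjusted p under 0.05 by edgeR's quasi-likelihood test, against 4.44% of all genes, and 0 after adjustment. ETFB, a subunit of the flavoprotein that feeds electrons from fatty acid oxidation to coenzyme Q, had 19.1 and 21.9 CPM in control, 15.1 and 12.7 in KD1 and 12.0 and 14.3 in KD2, a log2 fold change of -0.60 ± 0.22 with an adjusted p of 0.596. COQ8B, a kinase-like protein of coenzyme Q synthesis, had a log2 fold change of -0.54 and was named after its values were seen. All 4 knockdown libraries lay below control for ETFB, a pattern shown by 9.08% of all genes tested. Of 19 genes of the TCA cycle, 1 was higher, against 3.23% of all genes, and 0 lower. PDHX, a structural component of pyruvate dehydrogenase, had 51.7 and 40.05 CPM in control, 63.3 and 73.9 in KD1 and 63.1 and 58.1 in KD2, a log2 fold change of 0.49 ± 0.20 with an adjusted p of 0.642. Here the 4 knockdown libraries lay above control, as they did for 8.40% of all genes tested.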
